A study of Mus musculus with 45 samples.

Results

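Red cell membrane skeleton genes are described here across erythroblast classes, clusters and Stag2 genotypes. The 7 genes were taken from a list of symbols, Sptb, Ank1, Epb41, Epb42, Slc4a1, Add2 and Tmod1, by a rule that uses no measured value, though the list was drawn up with earlier results of these data known. All 7 were among the 24333 genes with a deposited gene score, and all 7 passed the filter on low scores in every comparison. In the study, Stag2 was either left in place (WT) or deleted (KO) in mice; it codes for one of the parts of cohesin, a ring-shaped complex that holds DNA in loops. The samples used were 6 single-nucleus ATAC libraries of sorted Ter119+ erythroblasts, 3 WT and 3 KO, each a 10x multiome library. Mice of both genotypes had received pIpC, an inducer of interferon used to switch on the deletion, 6 to 8 weeks earlier. Strain, age, sex, the Cre driver and whether a library held 1 animal or several were not given in the sources used here, so p-values measure the spread between these libraries.

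The red cell keeps its shape through a meshwork of spectrin under the membrane. Long alpha and beta spectrin chains meet at junctions of short actin filaments, and the meshwork hangs on the membrane through ankyrin and band 3, the anion exchanger. The proteins are made and assembled as erythroblasts mature, and inherited defects in their genes cause spherocytosis and elliptocytosis. Among the members, Sptb encodes beta spectrin and Ank1 the ankyrin that ties it to band 3. Slc4a1 encodes band 3 itself, and Epb42 a protein that binds band 3 and ankyrin. Epb41 encodes the protein that strengthens the spectrin and actin junction, Add2 the beta subunit of adducin, which caps the fast-growing end of the actin filament, and Tmod1 tropomodulin, which caps the slow-growing end. A gene score sums ATAC fragments in and around a gene, so it measures how open the chromatin is and not how much RNA or protein is made. Each library's mean scores were rescaled to sum to 1000000, and levels of different genes are not compared, because how the scores treat gene length was not given in the sources used here.

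Promoter sequences are shown for members whose score was lower in KO in the Late class, the most mature one by name, and for Tmod1, whose score did not pass the test there. RefSeq promoters (GRCm38.p6, the mm10 coordinates used throughout) were found for 5 of the 7 members: Sptb, Epb41, Epb42, Add2 and Tmod1. The 250 bases before the gene start that goes with the deposited scores are printed from 5′ to 3′ on the gene's strand. For Tmod1 the RefSeq gene begins 282 bases further upstream, so its printed window lies inside that longer gene. Capitals mark matches to a GATA motif (AGATAA or TGATAA) in Epb42 and to a CACCC motif (CCNCNCCC) in the others, on both strands, and overlapping matches were counted separately.
Sptb, chr12:76710548-76710797, minus strand: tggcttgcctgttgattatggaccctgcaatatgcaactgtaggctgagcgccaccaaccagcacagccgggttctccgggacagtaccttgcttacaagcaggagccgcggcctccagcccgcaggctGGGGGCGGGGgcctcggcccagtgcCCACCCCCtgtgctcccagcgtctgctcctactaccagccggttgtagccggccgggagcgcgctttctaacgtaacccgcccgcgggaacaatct
Epb42, chr2:121036878-121037127, minus strand: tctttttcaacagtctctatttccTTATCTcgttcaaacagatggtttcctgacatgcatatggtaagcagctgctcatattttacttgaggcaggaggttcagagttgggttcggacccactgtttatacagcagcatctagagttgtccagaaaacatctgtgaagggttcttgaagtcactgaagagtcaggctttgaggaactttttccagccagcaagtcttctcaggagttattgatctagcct
Add2, chr6:86028431-86028680, plus strand: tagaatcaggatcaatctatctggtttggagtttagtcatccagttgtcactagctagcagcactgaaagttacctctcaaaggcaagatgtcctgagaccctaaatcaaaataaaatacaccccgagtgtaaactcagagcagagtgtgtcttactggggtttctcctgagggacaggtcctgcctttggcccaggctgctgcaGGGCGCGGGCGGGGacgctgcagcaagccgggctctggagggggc
Tmod1, chr4:46038972-46039221, plus strand: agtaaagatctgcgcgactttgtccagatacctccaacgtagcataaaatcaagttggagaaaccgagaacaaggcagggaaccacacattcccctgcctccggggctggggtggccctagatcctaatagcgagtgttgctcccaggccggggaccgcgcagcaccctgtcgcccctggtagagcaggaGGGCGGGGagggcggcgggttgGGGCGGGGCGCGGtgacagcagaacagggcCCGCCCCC
The single GATA match was in Epb42, at positions -226 to -221 from the gene start on the opposite strand. A GATA match was present in 16.6% of 32851 promoter windows of this length. Matches to the CACCC motif numbered 3 in Sptb, 2 in Add2, 4 in Tmod1 and 0 in Epb42, and 45.9% of all windows held at least 1. Epb41, which is not printed, has 3 annotated starts, whose windows held 3, 0 and 6 CACCC matches and 0 GATA matches. The E-box letters CANNTG, present in 66.2% of windows, occurred 4 times in Epb42, 1 time each in Sptb and Add2, 0 times in Tmod1, and 2, 1 and 0 times in the windows of Epb41. These are matches of letters in a short window and do not show that a factor binds there.

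The libraries held 4617 to 6990 nuclei and 46782673 to 66286151 ATAC fragments each. Of 33320 distinct barcodes, 725 occurred in more than 1 library. In every KO library fewer of the fragment ends fell in peaks, with medians of 58.8% ± 1.24 in KO and 63.1% ± 1.38 in WT (SD, n = 3 each; two-sided exact permutation p = 0.1 and 0.225 adjusted over 9 quality measures). No comparison of 3 libraries with 3 can give an exact p below 0.1. Of the erythroid markers, 11 of 12 were measured (Hbb-bt was not analysed here), and their summed score was 2120 to 2341 in WT and 1803 to 2000 in KO libraries. That sum fell with genotype too, since 10 of the 11 erythroid markers were lower in KO (limma) and 0 were higher; none of these markers is a member. The summed scores in WT and KO libraries were 94.1 to 118 and 109 to 130.3 for 10 stem and progenitor markers, 195 to 237 and 228 to 254 for 12 myeloid markers, and 90.5 to 101 and 106 to 115 for 10 lymphoid markers. They were 271 to 304 and 303 to 314 for 8 megakaryocyte markers and 21.5 to 26.0 and 30.8 to 31.4 for 6 mast cell and basophil markers, and no marker of any list was at 0. Lower and higher in KO (limma) were 1 and 4 of 10 stem and progenitor, 0 and 3 of 8 myeloid and 0 and 2 of 5 lymphoid markers tested. Of 2 mast cell and basophil markers tested 2 were higher. Of 5 megakaryocyte markers tested 2 were lower and 1 higher, Itga2b, with means of 51.2 in WT and 89.2 in KO. Of all genes 14.2% were lower and 29.1% higher. How far these differences contribute to the members' scores was not tested, apart from the matching of nuclei given below. The score over Stag2 itself was 64.2, 65.7 and 65.9 in WT and 61, 65.1 and 62.4 in KO libraries. Openness around a gene does not check a deletion within it, so these values do not test the labels.

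The deposited table divides the nuclei into classes named Early, Int and Late and into clusters C1 to C11. Int is read here as intermediate. Classes may have been assigned with these same scores, so differences between them are described without a test. The classes also differ in depth, with median fragments per nucleus of 11890 in WT and 14480 in KO in Int, against 6345 and 6202 in Late. The share of fragment ends in peaks was 58.0% and 55.7% in Int and 65.0% and 60.9% in Late. Early nuclei of the libraries used below had medians of 41018 to 44045.5 fragments. How far this contributes to differences between classes was not tested.

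From Int to Late some members became more open and others less. Epb41, Slc4a1, Epb42 and Tmod1 were more open in Late than in Int in 6 of 6 libraries, and Sptb and Ank1 were less open in 6 of 6. Of all genes 29.1% were more open and 41.4% less open in Late in every library. Epb41 moved furthest, to 1.91 times its Int score in WT and 1.96 times in KO. The ratio of Late to Int was 1.44 in WT and 1.42 in KO for Slc4a1, and 1.28 and 1.22 for Tmod1. Epb42, which encodes the partner of band 3, had ratios of 1.32 in WT and 1.22 in KO. The spectrin gene Sptb went the other way, with ratios of 0.767 in WT and 0.652 in KO, and Ank1 with 0.932 and 0.781. The step of Ank1 in WT, -0.10 on the log2 scale, was about that of the median gene. Add2 was the flattest member in WT at 0.961, with 1 of 3 WT libraries higher in Late, and was at 0.826 in KO. The median gene moved by -0.08 in WT and by -0.09 in KO on the log2 scale over 15873 genes. Because each library is rescaled to a fixed sum, the sign of such a small median cannot be told apart from the scaling.

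**Figure D1:**
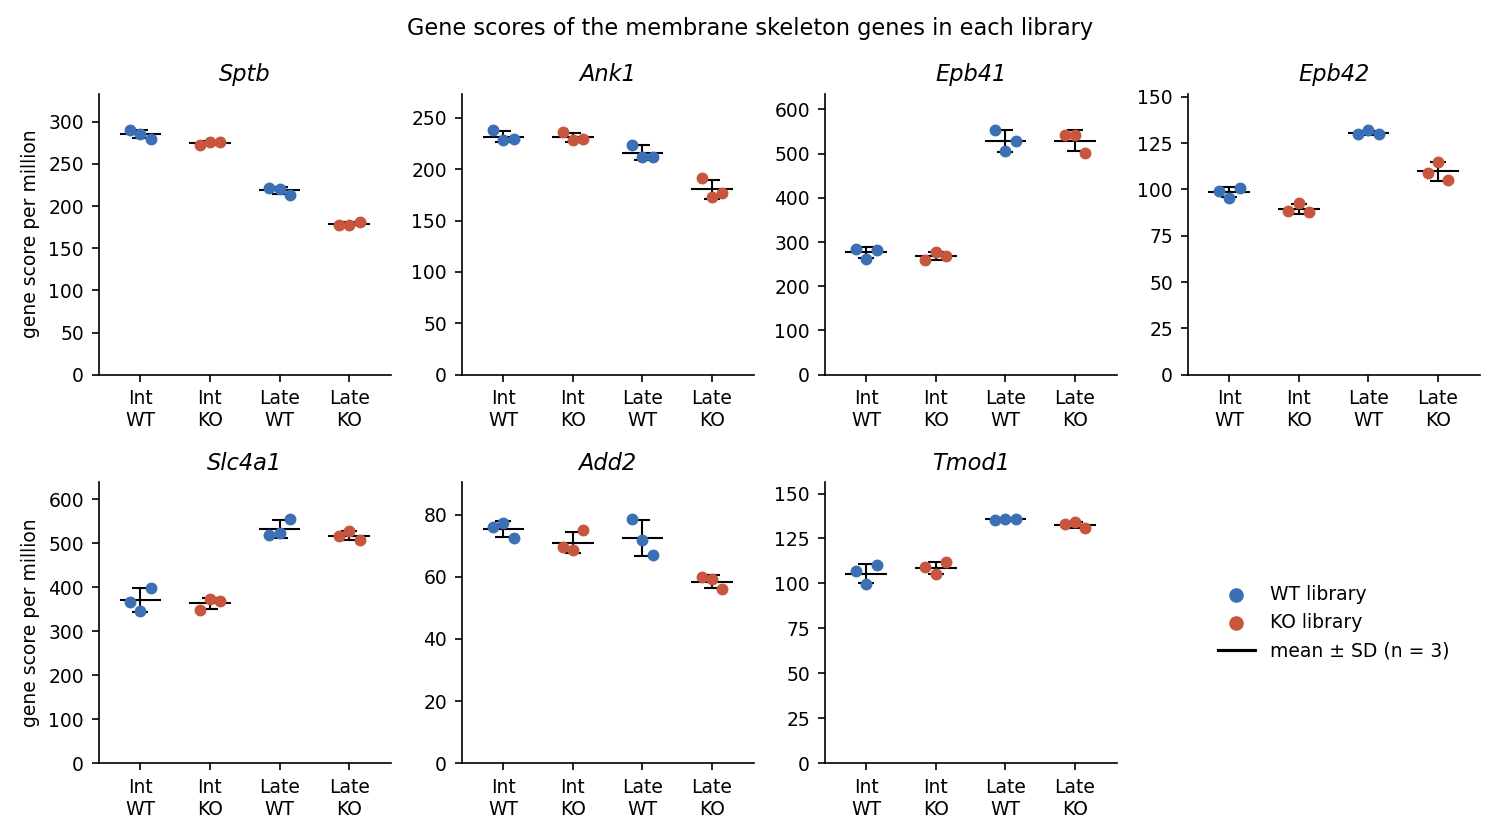
Gene score, rescaled to a library sum of 1000000 (y axis, from 0) of each member in Int and Late nuclei, 1 point per library, blue for WT and red for KO, with the mean and SD of 3 libraries in black. In Late, the KO points of Sptb, Ank1, Epb42 and Add2 lie below all WT points by a clear gap, and those of Epb41 and Slc4a1 overlap with WT.

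Early nuclei reached the minimum of 50 in 3 libraries only, with 102 in WT replicate 1, 235 in WT replicate 2 and 310 in KO replicate 1. In these libraries Slc4a1 stood at 167, 160.0 and 163 in Early, against 366, 347 and 349 in Int. Epb42 stood at 55.2, 53.2 and 46.4 in Early against 99.4, 95.6 and 88.1 in Int, and Tmod1 at 61.5, 56.4 and 75.8 against 107, 99.8 and 109. These 3 genes and Epb41, at 196, 189 and 186 in Early against 285, 262 and 260 in Int, had their lowest score in Early and their highest in Late in each of the 3 libraries. Sptb was highest in Int, at 290, 285 and 272, with 216, 217 and 200 in Early. Ank1 was also highest in Int in each of these libraries, by less, with 209, 222 and 220.0 in Early against 238, 228 and 236. Add2 was highest in Early, at 81.9, 86.8 and 80.8 against 76, 77.4 and 69.5 in Int.

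Over all nuclei of a library, whether loss of Stag2 changed the openness of the members was asked first. Beta spectrin, ankyrin, the Epb42 protein gene and beta adducin were less open in KO, by small amounts. Of the 7 members 4 were lower in KO and 0 higher (limma, Benjamini-Hochberg adjusted p under 0.05 over 17682 genes). Of all genes tested 14.2% were lower and 29.1% higher. The comparison changes with the level of a gene: among the 25% of genes with the highest mean score, to which 6 of the 7 members belong, 31.4% were lower. The members' median log2 fold change was -0.12, against 0.10 over all genes and -0.07 over those 25%. The balance of calls over all genes depends on scaling: 67.1% of them were higher in KO as reported, 54.0% with cyclic loess, 46.9% with quantile normalization and 35.4% with median centring, which moved the median gene from 0.10 to -0.05.

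Epb42 had the lowest adjusted p over all nuclei, with scores of 119, 113 and 113 in WT and 94.6, 105 and 96.6 in KO. The KO values lay below all WT values, which is -0.22 ± 0.05 on the log2 scale (SE, limma, adjusted p = 0.00153), and the call held under each of 19 alternatives. Add2 had 77.8, 74.8 and 70.2 in WT and 65.9, 63.5 and 65.4 in KO. This is a change of -0.19 ± 0.05 (limma adjusted p = 0.00534), and the adjusted p was 0.075 when nuclei were weighted by their fragments. Sptb had 244, 249 and 252 in WT and 226, 221 and 227 in KO, again without overlap, at -0.14 ± 0.04 (limma adjusted p = 0.0154). Ank1 had 228, 220 and 222 in WT and 215, 198 and 202 in KO, at -0.12 ± 0.05 (limma adjusted p = 0.0367). The last 2 calls were fragile. With cyclic loess scaling the limma adjusted p was 0.197 for Sptb and 0.491 for Ank1, and with fragment weights it was 0.258 and 0.356. Sptb missed the threshold without KO replicate 2 (limma adjusted p = 0.0604). Ank1 missed it without WT replicate 1 (0.105), WT replicate 2 (0.0507), KO replicate 2 (0.146) or KO replicate 3 (0.113), each a limma adjusted p.

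The other 3 members did not pass over all nuclei. Slc4a1 had 463, 431 and 465 in WT and 412, 458 and 439 in KO, and the groups overlapped. Epb41 had 461, 385 and 387 in WT and 382, 423 and 387 in KO. WT replicate 1, which holds the most Late nuclei (4527 of 6865), was the highest for Epb41. With Int and Late weighted equally, again 4 members were lower. Tmod1 had 124, 117 and 121 in WT and 117, 121 and 121 in KO. The 95% intervals of the log2 fold change ran from -0.18 to 0.07 for Slc4a1, from -0.19 to 0.10 for Epb41 and from -0.10 to 0.08 for Tmod1. In the count of libraries alone, 4 members had every KO value below every WT value, as did 19.3% of genes.

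**Figure D2:**
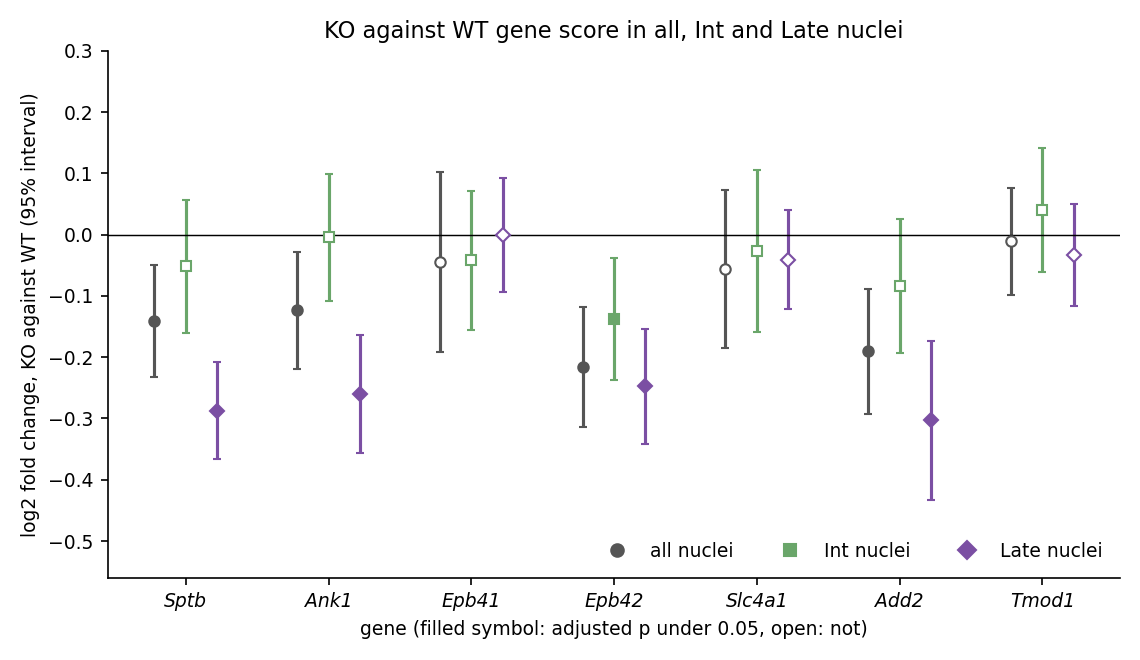
Log2 fold change of KO against WT (y axis) with its 95% interval for the 7 members, over all, Int and Late nuclei. Filled symbols have a limma adjusted p under 0.05. The Late values of Sptb, Ank1, Epb42 and Add2 lie between -0.30 and -0.25, and those of Epb41, Slc4a1 and Tmod1 lie within 0.05 of 0.

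The comparison was then made within each class. In Int, 1 member, Epb42, was lower in KO and 0 were higher, where 7.1% of 19465 genes were lower and 12.7% higher, and 17.8% of the 25% with the highest scores were lower. In Late, 4 members were lower and 0 higher, where 18.5% of 15886 genes were lower and 32.9% higher, and 32.8% of the 25% with the highest scores were lower. The members' median log2 fold change was -0.04 in Int, against 0.06 over all genes and -0.06 over the 25% with the highest scores, to which all 7 members belong there. The members' Int median thus lay below the first of these values and above the second. In Late it was -0.25, against 0.05 over all genes and -0.06 over the 25% with the highest scores, to which 6 members belong. KO nuclei of the Int class were deeper, with a median of 14480.3 ± 545 fragments per nucleus against 11890 ± 1535 in WT libraries (SD, n = 3; exact permutation p = 0.1, adjusted 0.225). Of the calls over all genes 64.2% in Int and 64.0% in Late were higher in KO, against 24.4% and 47.9% with median centring and 50.7% and 46.5% with quantile normalization. Every KO library lay below every WT library for 2 members in Int, where 14.4% of genes did so, and for 5 members in Late, where 22.7% did.

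Of the spectrin and ankyrin pair, Sptb (chr12:76580488-76710547, minus strand) had Late scores of 222, 220 and 213 in WT and 178, 177 and 181 in KO. The groups were far apart compared with their spread, at -0.29 ± 0.04 on the log2 scale (SE; limma adjusted p = 3.33e-05). In Int it had 290, 285 and 280 in WT and 272, 276 and 276 in KO, which did not overlap either but gave -0.05 ± 0.05 (limma adjusted p = 0.527). Ank1 (chr8:22974836-23150497, plus strand) had Late scores of 224, 212 and 212 in WT and 191, 173 and 177 in KO, at -0.26 ± 0.04 (limma adjusted p = 0.000353). In Int its groups were almost the same, with 238, 228 and 229 in WT and 236, 228 and 229 in KO (95% interval -0.11 to 0.10). Median centring moved the median gene in Int from 0.06 to -0.12. Under it Ank1 had -0.18 (limma adjusted p = 0.282) and Sptb -0.23 (0.202), so these Int values depend on the scaling.

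Of the band 3 pair, Epb42 (chr2:121017891-121036877, minus strand) was lower in KO in both classes. Its Late scores were 130, 132 and 130 in WT and 109, 115 and 105 in KO, at -0.25 ± 0.04 (limma adjusted p = 0.00044). Its Int scores were 99.4, 95.6 and 101 in WT and 88.1, 92.7 and 87.6 in KO, at -0.14 ± 0.05 (limma adjusted p = 0.044). The Int groups did not overlap, but the call was close to the threshold. It was lost without WT replicate 1 (0.104), WT replicate 3 (0.0828), KO replicate 1 (0.154), KO replicate 2 (0.0506) or KO replicate 3 (0.159), each a limma adjusted p, and with cyclic loess (0.135). Slc4a1 (chr11:102348820-102365281, minus strand) did not pass in either class. Its Late scores were 518, 524 and 556 in WT and 516, 528 and 508 in KO, which overlapped, with a 95% interval of -0.12 to 0.04. Its Int scores were 366, 347 and 399 in WT and 349, 373 and 369 in KO, with an interval of -0.16 to 0.11. Band 3 and its partner thus had different values in the same libraries, and the difference between genes was not tested.

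Of the members Add2, Epb41 and Tmod1, which act at the actin junction, only Add2 passed in Late and none passed in Int. Add2 (chr6:86028681-86124409, plus strand) had Late scores of 78.7, 71.7 and 66.9 in WT and 59.9, 59.4 and 56 in KO, at -0.30 ± 0.06 (limma adjusted p = 0.00103). The WT libraries were spread more widely than the KO libraries, and all KO values were below them. In Int it had 76, 77.4 and 72.5 in WT and 69.5, 68.5 and 75 in KO, where KO replicate 3 was above WT replicate 3 (-0.08 ± 0.05, limma adjusted p = 0.281). Epb41 (chr4:131923413-132075313, minus strand) had Late scores of 553, 505 and 529 in WT and 543, 542 and 502 in KO. Its log2 fold change of -0.00018 had a 95% interval of -0.09 to 0.09, which excludes the size of the Late change in Sptb. In Int it had 285, 262 and 283 in WT and 260, 278 and 269 in KO. Tmod1 (chr4:46039222-46116032, plus strand) had Late scores of 135, 136 and 136 in WT and 133, 134 and 131 in KO, lower in all KO libraries by a small step (-0.03 ± 0.04, limma adjusted p = 0.485). In Int it had 107, 99.8 and 110 in WT and 109, 105 and 112 in KO, which overlapped. Under cyclic loess the Late values of Epb41 and Tmod1 were 0.02 and 0.03, also short of the threshold.

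The share of fragment ends in peaks also differed within Late, at 65.0% ± 1.22 in WT and 60.9% ± 0.817 in KO (SD, n = 3; exact p = 0.1, adjusted 0.225). The comparison was therefore repeated on 830 Late nuclei per library, matched between libraries on fragments and on that share. Ank1 (-0.30) and Add2 (-0.34) stayed past the threshold, with limma adjusted p = 0.00413 and 0.00587. Sptb went to -0.15 (limma adjusted p = 0.0725) and Epb42 to -0.13 (0.202). So 2 of the 4 Late calls were not kept on the matched nuclei. Calls fell over all genes too, from 2941 of 15886 genes lower in KO as reported to 1142 of 15926 on the matched nuclei. The matched set was a single random draw and held fewer nuclei. Whether the matching or the smaller number of nuclei accounts for the lost calls was not tested. Matching on fragments alone left all 4 calls, with values between -0.33 and -0.25.

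**Figure D3:**
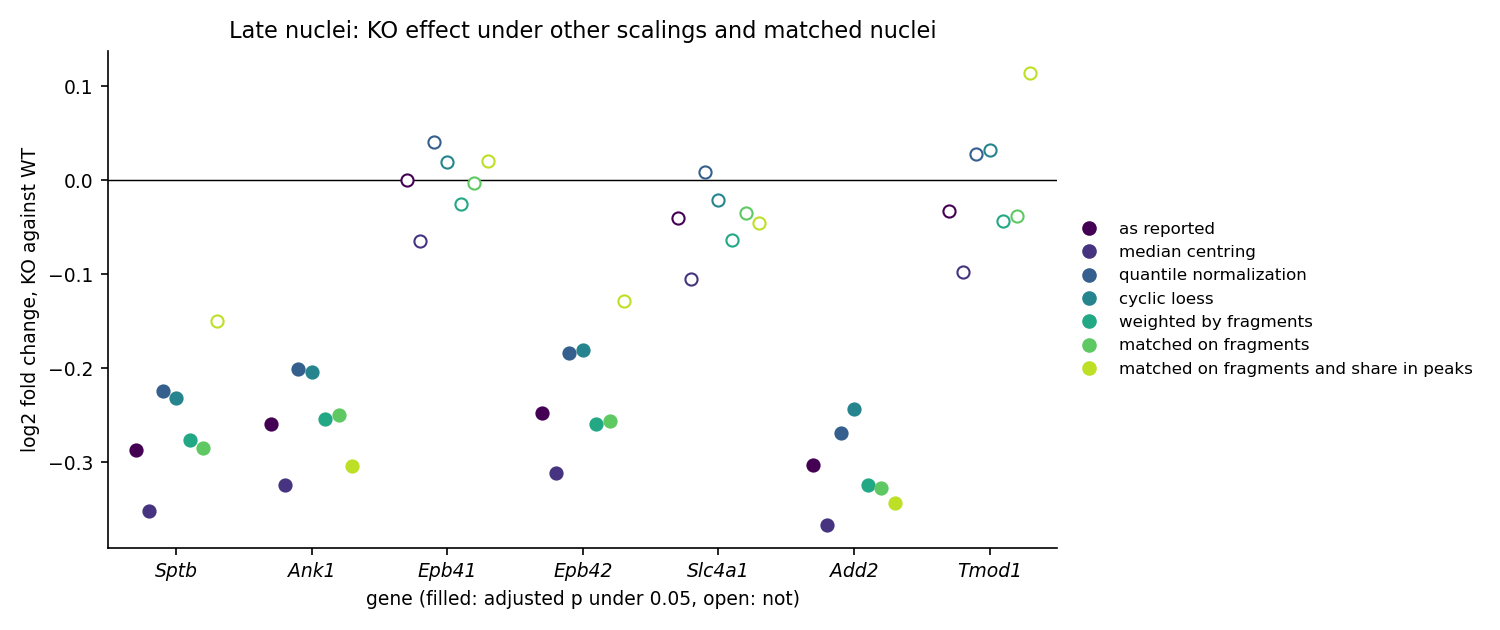
Log2 fold change of KO against WT in Late nuclei (y axis) for each member as reported and under 6 other scalings or selections of nuclei (colours). Filled points have a limma adjusted p under 0.05. Sptb and Epb42 move toward 0 and lose the call when nuclei are matched on fragments and share in peaks, and Ank1 and Add2 do not.

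Whether the KO effect differed between the classes was tested on the difference of Late and Int within each library. The step from Int to Late was more negative in KO than in WT for Sptb and Ank1. For Sptb the Late minus Int difference was -0.38, -0.37 and -0.39 in WT and -0.61, -0.64 and -0.61 in KO, an extra -0.24 ± 0.04 (limma adjusted p = 0.00259). For Ank1 it was -0.08, -0.11 and -0.11 in WT and -0.30, -0.40 and -0.37 in KO, an extra -0.26 ± 0.05 (limma adjusted p = 0.00187). These 2 of 7 members stand beside 2.21% of 15873 genes called more negative in Late and 4.2% called more positive. Both calls ended on matched nuclei, at -0.06 (limma adjusted p = 0.704) for Sptb and -0.23 (0.148) for Ank1. They were also lost without a variance trend (0.0799 each) and without a filter on low scores (0.0669 and 0.0681), where limma called 0 genes and 5088 had an unadjusted p under 0.05.

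Add2 had Late minus Int differences of 0.05, -0.11 and -0.11 in WT and -0.21, -0.20 and -0.41 in KO. They did not overlap, and the extra -0.22 ± 0.07 missed the threshold (limma adjusted p = 0.0553). Without 1 library it ran from -0.15 (0.279, without KO replicate 3) and -0.17 (0.322, without WT replicate 1) to -0.26 (0.0836, without KO replicate 2). It passed without WT replicate 3 (-0.25, 0.0258), with fragment weights (-0.23, 0.0243) and with the replicate number as a block (0.0178), each a limma adjusted p. For Epb42 the extra was -0.11 ± 0.05 (limma adjusted p = 0.217), so its larger change in Late is not shown to differ from that in Int. For Epb41, Slc4a1 and Tmod1 it was 0.04, -0.01 and -0.07, none past the threshold. The median over the 7 members was -0.11, against 0.00439 over all genes.

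C5 and the Early cluster C7 (363 WT and 369 KO nuclei) held many nuclei of both genotypes. C1 (75 WT and 63 KO) and C4 (69 and 74) were mixed but small, and the other 7 clusters came almost wholly from 1 genotype. Late nuclei were mostly C3 in WT (10059 nuclei, with 75 from KO) and C2 in KO (7070 nuclei, with 190 from WT). Sptb averaged 220.2 ± 4.49 in C3 of WT libraries and 179 ± 2.28 in C2 of KO libraries (SD, n = 3). The few WT nuclei in C2 were shallow, with a median of 1919.5 to 2258.5 fragments per library against 6091.5 to 6594 in KO. Their Sptb score was 141 ± 7.80 and their Add2 score 31.6 ± 15.4, both below the KO nuclei of the same cluster (179 ± 2.28 and 58.6 ± 1.87). So within C2 the order of the genotypes for these genes was the opposite of that over all Late nuclei. The C2 means of Ank1 (154 ± 33.9 in WT and 181 ± 9.24 in KO) and Epb42 (95.1 ± 26.1 and 110 ± 4.33) had this reversed order too, with a wide spread in WT. Slc4a1 was 663 ± 45.9 in WT and 519 ± 9.61 in KO nuclei of C2.

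C5 was the Int cluster with many nuclei of both genotypes, 628 WT and 1698 KO. There Sptb was 299 ± 9.71 in WT and 287 ± 7.15 in KO, and Ank1 was 216 ± 19.98 and 231 ± 9.37 (SD, n = 3). Epb42 was 113 ± 18.3 and 94.2 ± 3.65, and Tmod1 was 80.3 ± 16.8 and 103.8 ± 5.53. In a limma fit on C5 alone 0 members passed, where 171 of 19454 genes did, 90 of them lower. That fit used 143 to 261 Int nuclei per WT library and 520 to 590 per KO library. Their median fragments per nucleus were 3909 to 4163 in WT and 4765 to 5052 in KO libraries. The other Int clusters were C8 and C10 of KO nuclei and C6, C9 and C11 of WT nuclei. Epb42 was 84.6 in C8 and 89.4 in C10, against 101 in C6, 89.5 in C9 and 102 in C11. Sptb was 291 in C8 and 259 in C10, against 268 in C6, 289 in C9 and 293 in C11, so the clusters did not order by genotype for Sptb. Nor did they for Epb41, with 254 in C8 and 276 in C10 against 313, 248 and 279 in C6, C9 and C11.

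**Figure D4:**
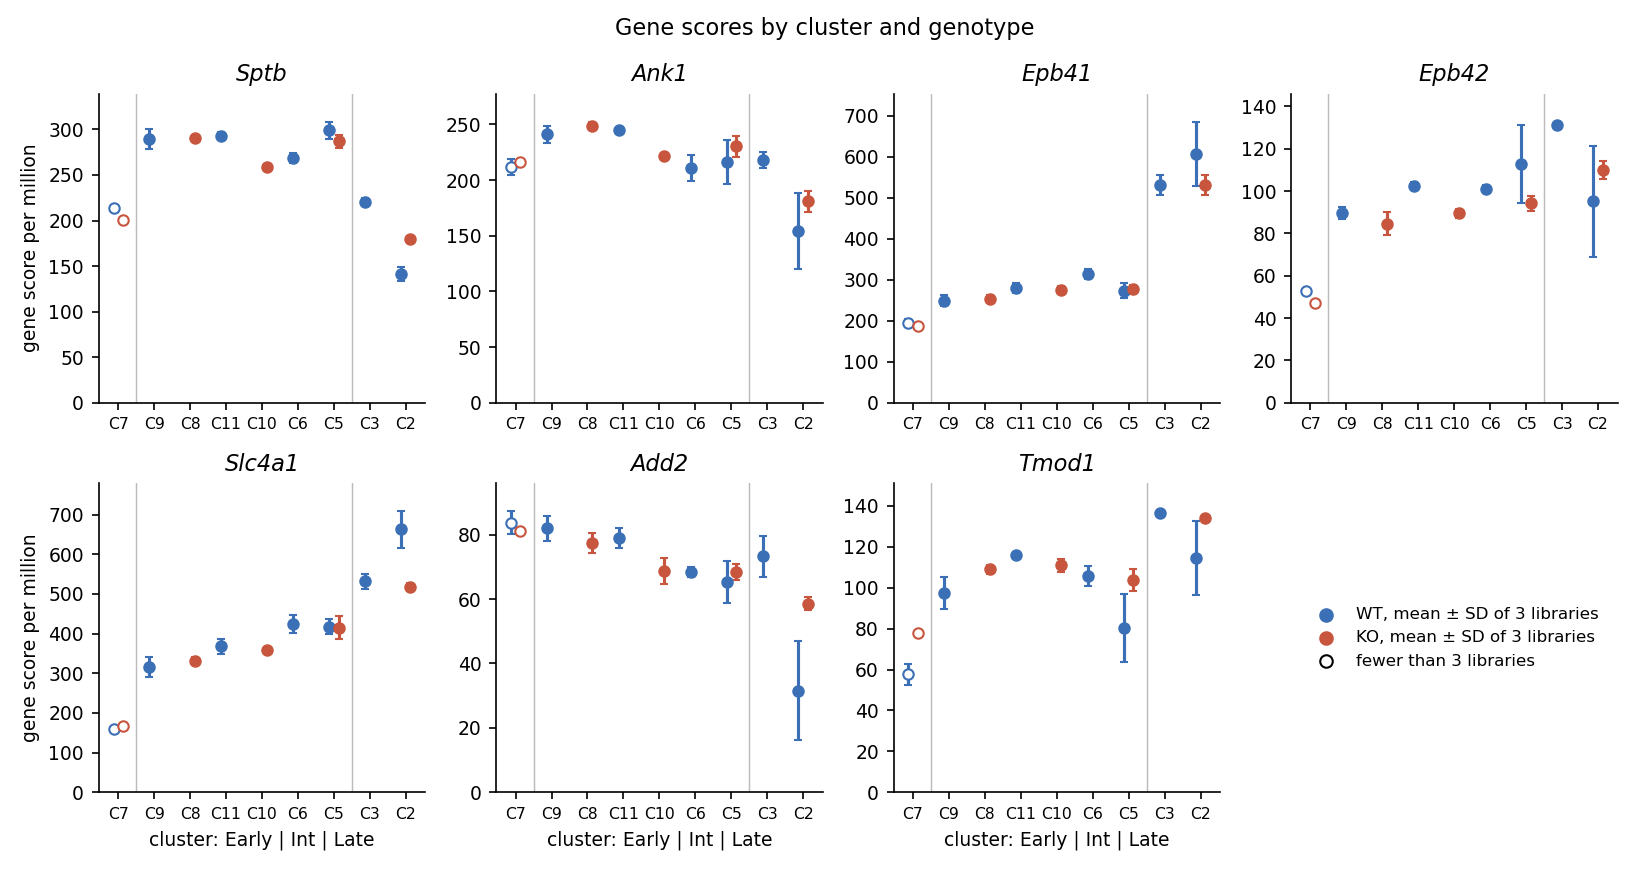
Gene score, rescaled to a library sum of 1000000 (y axis, from 0) of each member by cluster, ordered from Early through Int to Late, for WT (blue) and KO (red) libraries with at least 50 nuclei in the cluster, as mean and SD. Open points have fewer than 3 libraries and 1 library has no SD. Epb41, Slc4a1, Epb42 and Tmod1 have their lowest mean in C7 within each genotype, and Sptb is lower in both Late clusters than in every Int cluster.

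The companion proteins of the skeleton included genes that were lower and genes that were higher. Of 13 other skeleton genes 6 were lower and 2 higher over all nuclei, where 14.2% of all genes were lower and 29.1% higher and 31.4% of the 25% with the highest scores were lower. In Int 3 were lower and 1 higher, and in Late 7 were lower and 1 higher, where 7.1% and 18.5% of all genes were lower. Of the 25% with the highest scores 17.8% were lower in Int and 32.8% in Late. The list's Late median log2 fold change was -0.12. Under the alternatives the count of lower genes over all nuclei ran from 2 to 8. On matched nuclei the Late count of lower genes was 2. The Int count of lower genes was 0 without WT replicate 1 and 1 without KO replicate 1. Add3, the gamma subunit of adducin, had 63.5, 66.3 and 60.4 in WT and 52.5, 52.8 and 53.6 in KO, at -0.25 ± 0.05 (limma adjusted p = 0.000796), and passed in each of 19 alternatives. Mpp1, 1 of the genes lower in Int, encodes a membrane scaffold protein and had -0.19 (limma adjusted p = 0.0337). It falls outside the rule for naming genes and is named after its value was seen. The 2 higher genes were Tmod3 and Capzb. Tmod3, the widely expressed tropomodulin that erythroblasts also use, had 24.8, 25.0 and 22.1 in WT and 41.4, 38.5 and 37.1 in KO (0.68 ± 0.08, limma adjusted p = 2.42e-06). The 2 tropomodulin genes thus had different values, with Tmod1 at -0.01 over all nuclei, and the difference between them was not tested. Capzb, an actin capping gene, had 0.12 ± 0.04 (limma adjusted p = 0.0367), turned to -0.03 under median centring and lost the call when any 1 library was left out (limma adjusted p of 0.0529 to 0.0994).

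Membrane proteins outside the skeleton came next. Of 15 such genes 14 were tested over all nuclei, and 9 were lower and 1 higher, beside the same 14.2% and 29.1% of all genes. 1 of them is also on the erythroid marker list above. In Int 7 of 15 were lower and 0 higher (limma; also 0 higher at an unadjusted p under 0.05), beside 7.1% of all genes lower. In Late 12 of 14 were lower and 2 higher, beside 18.5% and 32.9% of all genes, with a Late median of -0.23 against 0.05 over all genes. The 2 higher in Late were 1 without WT replicate 1, WT replicate 3, KO replicate 2 or KO replicate 3 and 0 on matched nuclei. Under the alternatives the count of lower genes ran from 5 to 11 over all nuclei, from 1 to 9 in Int and from 8 to 12 in Late. It was 1 in Int without a variance trend and in C5 alone. Xk, which encodes a membrane protein of the Kell complex, had 49.1, 44.7 and 46.8 in WT and 32.0, 32.4 and 37.4 in KO (-0.46 ± 0.07, limma adjusted p = 6.36e-05). Aqp1, the water channel, had 196, 192 and 213 in WT and 155, 144 and 148 in KO (-0.43 ± 0.05, limma adjusted p = 2.56e-06). Both had KO values below all WT values and passed in each of 19 alternatives. Slc2a1, the glucose transporter, was the 1 higher gene, with 11.6, 11.9 and 12.3 in WT and 16.8, 16.5 and 16.4 in KO (0.45 ± 0.10, limma adjusted p = 0.00214), and its call was lost with quantile normalization (0.17, limma adjusted p = 0.128), with cyclic loess (0.21, 0.0559), with fragment weights (0.38, 0.0597) and on matched nuclei (0.22, 0.138). Cd44, an adhesion receptor that falls in level as erythroblasts mature, had 15.1, 20.2 and 14.2 in WT and 22.6, 18.8 and 19.7 in KO (limma adjusted p = 0.0511). Without WT replicate 2 Cd44 passed (0.45, limma adjusted p = 0.00272).

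Relatives of the members that mainly serve other tissues were higher about as often as genes in general over all nuclei and in Int. Of 30 such paralogs 26 were tested over all nuclei, and 2 were lower and 8 higher, where 14.2% of all genes were lower and 29.1% higher. In Int 1 of 29 was lower and 3 were higher, where 7.1% of all genes were lower and 12.7% higher. In Late 2 of 25 were lower and 11 higher, where 18.5% of all genes were lower and 32.9% higher. The Late median was 0.22 against 0.05 over all genes. Those 11 include Epb41l4b, whose Late scores were 3.89, 4.82 and 4.16 in WT and 8.37, 11.2 and 12.1 in KO. It passed the filter at a mean of 5 in Late only through the KO libraries. The count of higher genes in Late was 3 with quantile normalization, 5 with cyclic loess and 2 on matched nuclei. Over all nuclei it was 4 without WT replicate 1, 5 without KO replicate 2 and 14 without WT replicate 2. In Int it was 5 without WT replicate 2 and 1 without any 1 of WT replicate 1 and the 3 KO libraries. Over all nuclei Epb41l4b, a relative of Epb41, had 6.5, 8.58 and 8.09 in WT and 12.8, 12.8 and 14.6 in KO (0.73 ± 0.12, limma adjusted p = 0.000144). Sptbn1, the beta spectrin of most other cells, had 24.8, 21.3 and 21.0 in WT and 32.5, 33.6 and 34.7 in KO (0.57 ± 0.08, limma adjusted p = 3.65e-05). Both passed in each alternative in which they were tested. So the score over Sptbn1 was higher and that over Sptb lower in KO. The 2 lower paralogs were transglutaminase genes, relatives of Epb42: Tgm2 at -0.20 (limma adjusted p = 0.00512) and Tgm5 at -0.22 (0.0336). Tgm5 lies 9234 base pairs from Epb42, so these 2 genes may share fragments. Tgm5 lost the call without WT replicate 1 (limma adjusted p = 0.139), WT replicate 3 (0.0503), KO replicate 1 (0.1125) or KO replicate 3 (0.0885), with fragment weights (0.224) and on matched nuclei (0.0638). Tgm2 lost it with fragment weights (limma adjusted p = 0.0972).

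Neighbouring genes may share fragments in a gene score, so the genes around each member were read from the same fits. Within 100 kb of the 7 members 46 genes were tested, and over all nuclei 15 were lower and 8 higher in KO, where 14.2% and 29.1% of all genes were. In Late 14 were lower and 6 higher, where 18.5% and 32.9% of all genes were. Neighbours of 1 member share a region, so these counts are not independent. Epb42 lay among genes that were lower with it, with 3 of 5 neighbours lower over all nuclei and 4 of 5 in Late. The furthest moved was Tmem62, 10048 base pairs away, with 93.3, 88.0 and 85.7 in WT and 72.8, 74.7 and 79.1 in KO (-0.23 ± 0.05, limma adjusted p = 0.00102). The others over all nuclei were Ccndbp1 (-0.20), 979 base pairs away, and Tgm5 (-0.22), 9234 base pairs away, the first of them named after its value was seen. The loss in Epb42 therefore cannot be assigned to that gene alone from these scores. Add2 had 3 of 4 neighbours lower and 1 higher, both over all nuclei and in Late. Over all nuclei they were led by Figla (-0.31 ± 0.10, limma adjusted p = 0.0171), 7685 base pairs away. That Figla call was lost without WT replicate 1 (limma adjusted p = 0.0632) or KO replicate 2 (0.0805) and with fragment weights (0.144). In Late Figla had -0.48 (limma adjusted p = 0.000248), against -0.30 for Add2. The loss in Add2 therefore cannot be assigned to Add2 alone from these scores either.

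Sptb had 0 of 6 neighbours past the threshold over all nuclei and in Late (limma; at an unadjusted p under 0.05, 1 over all nuclei and 0 in Late). Within 200 kb 2 of 10 were lower, both over all nuclei and in Late. Whether its change differed from that of its neighbours was not tested. The nearest of them, Plekhg3, lies 1449 base pairs away and had 12.8, 13.3 and 10.5 in WT and 15.6, 13.6 and 14.5 in KO (0.24, limma adjusted p = 0.0911). Its unadjusted limma p was 0.0484, and without WT replicate 2 it passed (0.30, limma adjusted p = 0.0396). Ank1 had 2 of 8 neighbours lower and 1 higher. The higher one, the microRNA gene Mir3107, lies inside Ank1 and had 49.9, 50.1 and 48.9 in WT and 60.0, 55.5 and 53.7 in KO (0.18 ± 0.05, limma adjusted p = 0.0137). It lost the call without KO replicate 1 (limma adjusted p = 0.0862), under median centring (0.692) and on matched nuclei (0.409). The microRNA gene Mir486 covers the same bases on the other strand and did not pass over all nuclei (0.15, limma adjusted p = 0.123), in Int (0.18, 0.0909) or in Late (0.12, 0.298); it is named after its values were seen. Within the classes the host and the microRNA gene did not both pass. In Int Mir3107 was higher (0.21, limma adjusted p = 0.00662) while Ank1 was at -0.004, and in Late Ank1 was lower while Mir3107 was at 0.09 (limma adjusted p = 0.424).

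Slc4a1 had 4 neighbours lower and 3 higher of 12. The furthest moved was Itga2b, the platelet integrin gene, 88016 base pairs away and one of the megakaryocyte markers above. It had 53.6, 51.7 and 48.4 in WT and 85.4, 93.5 and 88.5 in KO (0.79 ± 0.05, limma adjusted p = 3.98e-09), and the call held in each of 19 alternatives. Slc4a1 itself, between these neighbours, did not pass. Tmod1 had 3 of 5 neighbours lower and 1 higher. The neighbour furthest from 0, Ccdc180, had a fold change of 0.19 that did not pass (limma adjusted p = 0.165). Epb41 had 0 lower and 2 higher of 6, led by Ptpru (0.28 ± 0.08, limma adjusted p = 0.0137), which lost the call without WT replicate 3 (0.0554), under median centring (0.106), quantile normalization (0.168) and cyclic loess (0.0701), with fragment weights (0.0988) and on matched nuclei (0.865).

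**Figure D5:**
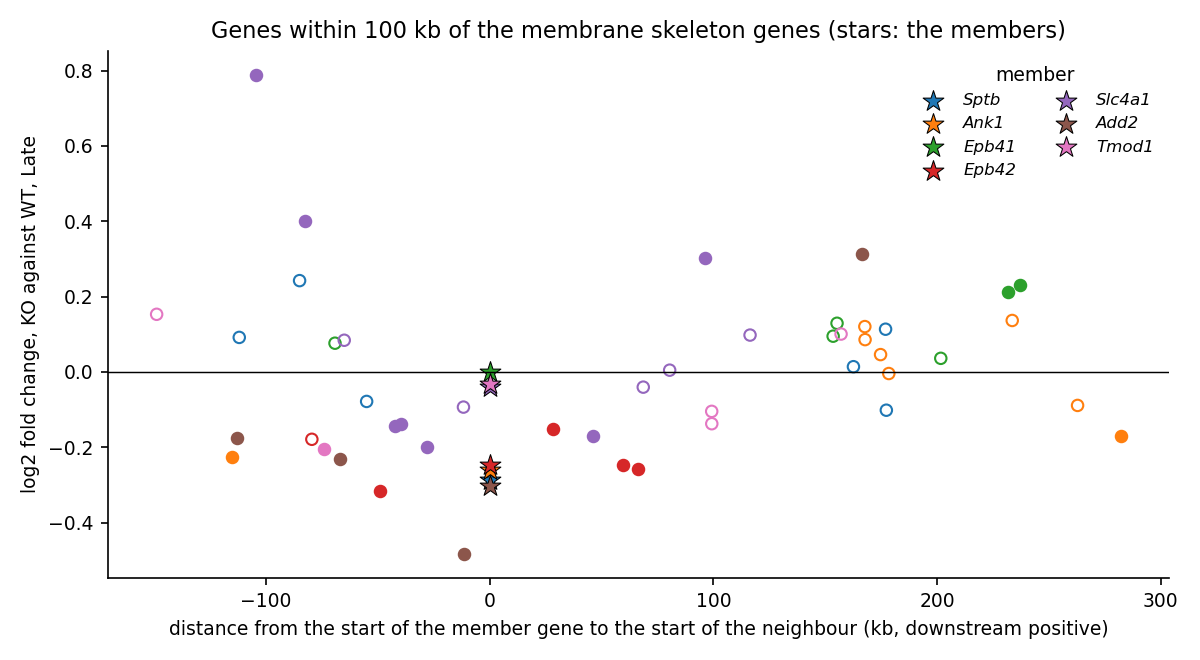
Log2 fold change of KO against WT in Late nuclei (y axis) of genes whose bodies lie within 100 kb of a member, against the distance between the 2 gene starts in kb (x axis, downstream positive), coloured by member. Filled circles have a limma adjusted p under 0.05 and stars are the members. The neighbours of Epb42 lie between -0.32 and -0.15, and those of Sptb lie on both sides of 0.

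The members' scores were also compared with each other and with all other genes over the 12 values of 6 libraries in Int and Late. These points share libraries and are dominated by the step from Int to Late, so the coefficients are descriptions. Slc4a1 and Epb41 had the closest courses, with a Pearson r of 0.983, and Slc4a1 and Tmod1 had 0.978. Sptb and Ank1 ran together at 0.926, and Sptb and Epb41 ran against each other at -0.915. Outside 1000000 base pairs of any member, the genes most like the members' mean were Arfgap3 (0.986), Tfdp2 (0.986), Ctsb (0.979), Slc22a4 (0.979) and Bloc1s4 (0.979). By Spearman rank correlation 0 of these 5 were among the top 5, so this choice depends on the measure. The single most similar gene was Mirlet7i for Sptb (0.994), Dpy30 for Ank1 (0.974), Ube2o for Epb41 (0.998) and Arl4a for Epb42 (0.988). It was Zfand5 for Slc4a1 (0.997) and Wdr44 for Tmod1 (0.988).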

How the data were processed

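The ATAC gene scores of 34073 Ter119+ nuclei were used. Per the file headers, the authors deposited a signal per gene and nucleus, a gene score, and in a table of nuclei the counts of ATAC fragments with quality measures, genotype, cluster and class. The signal summed to 9999.855 to 10000.12 in each nucleus. Per the submitters' processing notes, Cell Ranger and the mm10 build were used. How fragments were weighted by distance, how classes were assigned and how doublets were treated were not given in the sources used here. The table listed each nucleus 2 times, and 1 copy was used. RNA, CUT&RUN and Hi-C libraries and stem and progenitor cells were not analysed here.

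For each library the mean score of its nuclei was taken, rescaled to a sum of 1000000, filtered at a mean of 5 and compared as log2(score + 1) with limma 3.58.1 in R 4.3.3 (variance trend, two-sided, Benjamini-Hochberg over all genes tested, threshold 0.05). Fold changes are on this log2(score + 1) scale, which understates those of low genes. For the class difference the trend was on the mean level of both classes. The fitting step was tested on simulated libraries, in which far fewer genes changed than were called here. That test did not cover the scaling. Exact permutation tests served for the quality measures, from scipy 1.17.1 under Python 3.11.15; tables were handled by pandas 2.3.3 on numpy 2.4.6 and plots by matplotlib 3.10.9. In fits without 1 library the other 2 of that genotype remained. Alternatives changed the pseudocount, filter, scaling, variance trend, libraries and nuclei used. No batch was given in the labels.

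The members and lists were chosen with earlier results of these data known. Genes were named by rule: the members, Stag2, Gata1 and Klf1, the 2 highest and 2 lowest of each companion list and the neighbour of each member furthest from 0, all in the fit over all nuclei, and the genes most like the members. Some genes that the rule names are not reported here.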

Additional observations from a re-analysis of the deposited data

Results flagged for a closer look

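Genes whose KO effect differed between Late and Int by a test of that difference are given here. The effect in Late less that in Int was -0.24 for Sptb, -0.26 for Ank1, -0.30 for Xk, -0.36 for Aqp1 and 0.70 for Epb41l4b, on the log2 scale. All had a limma adjusted p under 0.05 as reported. On nuclei matched on fragments and share in peaks none did. There the difference was near 0 for Sptb (-0.06, limma adjusted p = 0.704) and Xk (-0.09, 0.749). It was -0.23 for Ank1 (0.148), -0.27 for Aqp1 (0.110) and 0.55 for Epb41l4b (0.313), on fewer nuclei. All 5 calls were also lost without a filter on low scores (limma adjusted p of 0.0669, 0.0681, 0.0780, 0.147 and 0.106, in the order above) and without a variance trend (0.0799, 0.0799, 0.0707, 0.175 and 0.0536). Xk also lost the call without WT replicate 1 (limma adjusted p = 0.173), KO replicate 1 (0.0521), KO replicate 2 (0.0758) or KO replicate 3 (0.0795) and on nuclei matched on fragments alone (0.0660). Epb41l4b lost it without WT replicate 1 (0.0758), KO replicate 2 (0.122) or KO replicate 3 (0.0662). With a pseudocount of 10 Epb41l4b had 0.26 (limma adjusted p = 0.0986), so its value depends on the pseudocount. Its Late scores were 3.89, 4.82 and 4.16 in WT and 8.37, 11.2 and 12.1 in KO, so it passed the filter at a mean of 5 in Late only through the KO libraries. The part of depth and peak share in these differences was not tested beyond that matching.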

How the results depend on the processing

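Ank1 and Add2 in Late, and Epb42, Add3, Tmod3, Xk, Aqp1 and Sptbn1 over all nuclei, stayed past the threshold in the same direction in every alternative run. The number of genes called over all nuclei, 7661, became 4244 with a mean score of at least 20, 2415 with fragment weights and 4467 on nuclei matched on fragments and share in peaks. In Int, 3858 became 2419 without a filter, 1921 without a variance trend and 171 in cluster C5 alone, and ran from 2547 (without KO replicate 1) to 4782 when 1 library was left out. In Late, 8161 became 4560 with a mean of at least 20 and 2362 on matched nuclei. For the difference between the classes, 1017 became 0 without a filter, 468 with a mean of at least 20, 206 without a variance trend and 54 on matched nuclei. It ran from 309 (without KO replicate 2) to 2211 (without WT replicate 3). Beside those 0 and 54 calls, 5088 and 2041 genes had an unadjusted p under 0.05 (limma).

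Members lower over all nuclei, 4, were 2 with quantile normalization, 2 with cyclic loess, 1 with fragment weights and 2 to 4 without 1 library. In Int, the 1 member became 0 without a filter, with quantile normalization, with cyclic loess, without a variance trend and in C5 alone, 2 with median centring, and 0 to 1 without 1 library. In Late, 4 became 2 on matched nuclei. For the difference, 2 became 0 without a filter, without a variance trend and on matched nuclei. The cause of these changes was not tested.

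The values that changed sign follow, none of them past the threshold after the change. Over all nuclei Capzb had -0.028 with median centring. With quantile normalization Tmod1 had 0.050, Plekhg3 -0.041 and Ccdc180 -0.081, and with cyclic loess Epb41 had 0.024, Slc4a1 0.011, Tmod1 0.058 and Ccdc180 -0.079. Tmod1 had 0.0012 with fragment weights. On matched nuclei Epb41 had 0.015, Tmod1 0.055, Ccdc180 -0.034 and Cd44 -0.031. Without 1 library Epb41 ran from -0.0905 to 0.040 and Tmod1 from -0.035 to 0.010.

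In Int, Tmod1 had -0.14 with median centring. Sptb, Ank1, Epb41 and Slc4a1 had 0.021, 0.065, 0.033 and 0.047 with quantile normalization and 0.031, 0.074, 0.040 and 0.060 with cyclic loess. On matched nuclei Epb41 had 0.011 and Slc4a1 0.026, and in C5 alone Ank1 had 0.10, Epb41 0.0089 and Add2 0.080. Without 1 library Ank1 ran from -0.020 to 0.014 and Slc4a1 from -0.074 to 0.028.

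In Late, Epb41, Slc4a1, Tmod1 and Cd44 had 0.041, 0.0083, 0.028 and -0.029 with quantile normalization. Epb41 had 0.020 and Tmod1 0.032 with cyclic loess. On matched nuclei Epb41 had 0.020, Tmod1 0.11, Capzb -0.026 and Cd44 -0.19. Without 1 library Epb41 ran from -0.034 to 0.037. Late median fragments, KO less WT, ran from -469.2 to 90.33 without 1 library.

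For the difference between the classes, Cd44 had -0.040 with quantile normalization, -0.046 with cyclic loess and -0.21 on matched nuclei. Epb41 had -0.0076 with cyclic loess, Capzb 0.033 with fragment weights, and Epb42 0.028 and Tmod1 0.099 on matched nuclei. Without 1 library Epb41 ran from -0.0026 to 0.079, Slc4a1 from -0.042 to 0.022, Capzb from -0.097 to 0.0076 and Cd44 from -0.035 to 0.21. With fragment weights the step of Sptb from Int to Late in KO was -0.60 rather than -0.62. Within 50000 base pairs of the members 26 neighbours were tested over all nuclei, and 12 were lower and 1 higher, where 14.2% and 29.1% of all genes were.

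WT and KO libraries share replicate numbers, and the scores cannot tell whether these numbers pair libraries that were handled together. Deviations of same-numbered libraries correlated at -0.12, -0.27 and 0.21 over all nuclei, 0.13, -0.08 and 0.19 in Int and 0.09, 0.05 and 0.05 in Late. Those of differently numbered libraries ran from -0.33 to 0.42 over all nuclei, from -0.26 to 0.18 in Int and from -0.07 to 0.02 in Late. With the replicate block 7470 genes were called over all nuclei, 4527 in Int, 7982 in Late and 1436 for the difference, and 4 members were lower over all nuclei. The block changed the call of Add2 for the difference (limma adjusted p = 0.0178), and over all nuclei of Cd44 (0.031) and Tgm5 (0.0518).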

Other observations

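The regulators of erythroid genes Gata1 and Klf1 were less open in KO as well. Gata1, the GATA factor of the lineage, had 79.7, 80.3 and 81.9 in WT and 68, 70.9 and 75.9 in KO over all nuclei (-0.17 ± 0.05, limma adjusted p = 0.0092), and all KO values were below all WT values. Its call was lost without KO replicate 1 (limma adjusted p = 0.0531), with quantile normalization (0.0516) and with cyclic loess (0.0698). Klf1, which binds CACCC motifs, had 239, 230 and 237 in WT and 196, 207 and 218 in KO (-0.18 ± 0.05, limma adjusted p = 0.00562). Its call was lost with fragment weights (limma adjusted p = 0.141).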
